A study of Mus musculus with 8 samples.

Results

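The comparison set kidney against lung in untreated mice, a tubular and an alveolar organ that both carry a dense capillary bed. It used the 2 kidney and the 2 lung libraries, 4 of the 8 libraries in the series, and no value of expression entered their choice, which rests on the tissue labels. Of 52195 genes in the deposited table, 14549 had a rescaled FPKM (the authors' read count scaled for library size and for transcript length) of 1 or more in at least 2 of the 4 libraries and were tested. Bulk RNA was prepared from whole organs of normal male C57BL/6J mice (labelled C57BL/6) aged 6 to 10 weeks, and mRNA was captured with beads before sequencing. The sources name no allele, transgene or agent for either tissue, and the replicates of a tissue came from separate mice. Each mouse gave several organs, and whether equal replicate numbers in kidney and lung mark 1 mouse is not stated. The excised organs were rinsed in buffered saline and ground whole, and each library holds all cell types of its organ, so that fewer cells of a type and less RNA per cell cannot be told apart.

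Kidney tubules reclaim most of the filtered salt, glucose and amino acids by secondary transport that the sodium pump drives, and proximal tubule cells supply the ATP for this mainly by mitochondrial oxidation of fatty acids and other fuels. The lung exchanges gas across a thin barrier of alveolar type 1 cells and capillary endothelium, and its elastic fibres recoil at each breath. It also holds resident alveolar macrophages and a large pool of blood leukocytes, and its endothelium converts and clears vasoactive peptides from the whole venous return. The genes below are therefore grouped as energy metabolism, vasculature, immune cells and extracellular matrix.

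Promoter windows are shown for 6 genes that differed between the tissues, as examples of where the letters of 4 regulatory motifs lie. They were picked for holding a motif. The sequences are RefSeq's for build GRCm38.p6, each from 250 bases before to 50 bases after the gene's start, and capitals mark the motif letters found by search on both strands. Sdhb (chr4:140961021-140961320, plus strand) and Cox6a1 (chr5:115348909-115349208, minus strand) encode subunits of respiratory complexes II and IV, and their capitals hold GCATGCGC, a core of the site of nuclear respiratory factor 1. In Sdhb a second run in capitals is ACCGGAAG, a core bound by ETS factors, and in Cox6a1 overlapping matches on both strands make the marked run longer than the core. Umod (chr7:119479213-119479512, minus strand), the uromodulin gene of the thick ascending limb, and Slc22a8 (chr19:8592932-8593231, plus strand), an organic anion transporter gene of the proximal tubule, hold GTTAAT, part of the site of the HNF1 factors. Scgb3a1 (chr11:49663345-49663644, plus strand) and Cyp2f2 (chr7:27119705-27120004, plus strand), genes of airway club cells, hold CACTTGA, a core bound by NKX2-1, which Cyp2f2 carries on the opposite strand.
Sdhb: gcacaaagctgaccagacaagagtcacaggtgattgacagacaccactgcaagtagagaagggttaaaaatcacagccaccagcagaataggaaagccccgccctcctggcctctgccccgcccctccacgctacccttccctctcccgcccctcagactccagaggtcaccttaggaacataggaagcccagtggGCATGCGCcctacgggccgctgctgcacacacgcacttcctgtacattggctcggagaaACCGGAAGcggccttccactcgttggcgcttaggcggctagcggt
Cox6a1: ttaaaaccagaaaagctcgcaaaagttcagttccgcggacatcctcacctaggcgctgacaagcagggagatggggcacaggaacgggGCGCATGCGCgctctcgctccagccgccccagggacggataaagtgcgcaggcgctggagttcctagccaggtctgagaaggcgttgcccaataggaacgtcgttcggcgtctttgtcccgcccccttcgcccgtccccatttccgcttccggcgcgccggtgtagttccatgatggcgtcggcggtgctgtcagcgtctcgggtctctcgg
Umod: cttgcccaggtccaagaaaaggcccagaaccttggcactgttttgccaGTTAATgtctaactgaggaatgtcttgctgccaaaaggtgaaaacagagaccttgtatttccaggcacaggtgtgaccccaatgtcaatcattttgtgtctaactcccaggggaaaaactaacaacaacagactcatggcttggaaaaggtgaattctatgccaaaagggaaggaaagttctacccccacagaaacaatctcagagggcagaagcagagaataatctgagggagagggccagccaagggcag
Slc22a8: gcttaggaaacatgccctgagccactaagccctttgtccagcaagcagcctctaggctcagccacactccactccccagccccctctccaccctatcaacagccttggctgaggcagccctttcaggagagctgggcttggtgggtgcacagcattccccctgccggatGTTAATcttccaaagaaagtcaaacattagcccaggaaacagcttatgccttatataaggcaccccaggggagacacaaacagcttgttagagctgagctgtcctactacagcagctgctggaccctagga
Scgb3a1: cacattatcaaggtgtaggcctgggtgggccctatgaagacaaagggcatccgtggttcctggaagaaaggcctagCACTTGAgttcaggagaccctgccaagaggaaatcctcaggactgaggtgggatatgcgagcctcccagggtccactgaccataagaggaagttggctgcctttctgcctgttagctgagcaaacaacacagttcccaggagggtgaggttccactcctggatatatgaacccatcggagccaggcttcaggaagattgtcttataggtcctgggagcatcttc
Cyp2f2: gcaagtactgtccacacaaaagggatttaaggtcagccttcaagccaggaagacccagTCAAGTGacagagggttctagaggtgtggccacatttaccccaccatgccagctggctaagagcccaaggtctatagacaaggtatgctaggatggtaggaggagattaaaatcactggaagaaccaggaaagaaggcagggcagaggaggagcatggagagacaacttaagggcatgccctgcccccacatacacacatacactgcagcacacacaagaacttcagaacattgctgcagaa

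In FPKM rescaled between libraries, Sdhb was at 181 and 306 in the kidney libraries and 32.3 and 33.4 in the lung libraries, and Cox6a1 at 618 and 1088 in kidney and 114 and 141 in lung, a difference that did not pass when either lung replicate was left out. Umod was at 919 and 982 in kidney and 1.84 and 0.532 in lung, and Slc22a8 at 160.1 and 168 in kidney and 0.237 and 0.0453 in lung. In the opposite direction Scgb3a1 was at 0.0953 and 1.03 in kidney and 498 and 312 in lung, and Cyp2f2 at 1.94 and 3.89 in kidney and 511 and 556 in lung.

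The GCATGCGC core was present in 10 of 67 windows (14.9%) of nuclear oxidative phosphorylation genes and in 2.71% of all 32851 promoter windows. GTTAAT was present in 6 of 28 windows (21.4%) of nephron segment markers and in 7.10% of all windows, and CACTTGA in 3 of 18 windows (16.7%) of alveolar and club cell markers and in 3.06% of all. Among genes called higher in kidney, GTTAAT occurred in 8.48% of 2607 windows, and among those called higher in lung in 4.78% of 2596 windows. In the same order GCATGCGC occurred in 4.68% and 1.62%, CACTTGA in 2.69% and 2.39%, ACCGGAAG in 3.53% and 0.925% and TCAAGGTCA in 0.269% and 0.347%. The ETS core was found in 0 of 18 windows of pan-endothelial genes and in 2.30% of all windows, and TCAAGGTCA, the element of oestrogen-related receptors, in 2 of 67 windows of oxidative phosphorylation genes and 0.423% of all. Windows were found for 62 of the 75 oxidative phosphorylation genes, 27 of the 36 nephron markers, 16 of the 22 alveolar and club cell markers and 13 of the 25 pan-endothelial genes. Among the 12674 windows matched to genes tested, GCATGCGC occurred in 4.77%, GTTAAT in 5.13%, CACTTGA in 2.24%, ACCGGAAG in 4.27% and TCAAGGTCA in 0.284%. These are counts of letters in a fixed window, and binding was not measured.

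Kidney libraries held 21444661 and 17310048 reads on genes and lung libraries 9764385 and 12427310, as recovered from the steps of the deposited values. A count of 3 reads on a gene with 1 kb of exons corresponds to a deposited FPKM of 0.140 to 0.307, and this floor covers counting error only. Mitochondrially encoded genes and their nuclear copies took 63.1% and 68.4% of the summed FPKM in kidney and 25.4% and 22.8% in lung. Because this leaves less of the sum for all other genes in kidney, values were rescaled by the median of ratios, and every FPKM given for a gene is a rescaled one, with replicate 1 named before replicate 2. The median of the absolute log2 difference between replicates was 0.32 in kidney and 0.13 in lung. Leaving out a lung library leaves 1 lung sample, so the spread then comes from the kidney replicates alone and the remaining lung library is taken to vary as they do. A call lost in that way therefore does not show that the left-out library carried the difference.

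The labels were checked against defining markers. All 11 proximal tubule, 5 thick ascending limb and 5 intercalated cell markers were higher in kidney, as were 3 of 4 distal convoluted tubule markers tested, whereas all 8 alveolar type 1, all 4 club cell and 5 of 6 ciliated cell markers were higher in lung. Of 10 alveolar type 2 markers 8 were higher in lung, and the other two, Napsa and Abca3, were higher in kidney. Napsa, an aspartic protease that processes surfactant protein B, was at 508 and 917 in the kidney libraries and 66.3 and 59.2 in the lung libraries, and Abca3, a lipid transporter of lamellar bodies, at 25.6 and 15.6 in kidney and 8.33 and 8.84 in lung. Napsa was thus well expressed in both tissues and more so in kidney (log2 difference 3.43 ± 0.39, SE), while the call of Abca3 was lost under 6 of 17 alternative settings, among them leaving out either lung library or kidney replicate 1. The principal cell list was split as well, with Aqp2 at 97.8 and 213 in kidney and 0.583 and 0.111 in lung and Scnn1g, a subunit of the epithelial sodium channel, higher in lung at 12.8 and 10.1 in kidney and 27.9 and 30.7 in lung, a call lost when either lung replicate was left out. Single markers were thus shared between the organs. Of 4 tested podocyte genes 2 were higher in kidney. Of tissues that lie next to the organs, the 6 adrenal cortex markers were at or below 1.25 in every library and none was called, 2 of 5 hepatocyte markers, Serpina1a and Apoc3, were higher in kidney (Serpina1a alone on the deposited values, with no filter, when either lung replicate was left out and without kidney replicate 2), and all 3 tested adipocyte markers were higher in lung.

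Leading genes of each tissue were also present at a trace in the libraries of the other tissue, at unequal levels between replicates. The 10 leading kidney genes stood at a median of 0.162% of their kidney level in lung replicate 1 and 0.0311% in lung replicate 2. The 10 leading lung genes stood at 0.0649% of their lung level in kidney replicate 1 and 0.269% in kidney replicate 2. Kap, a proximal tubule gene, was at 55.03 and 11.4 in the lung libraries and Sftpc, the surfactant protein C gene, at 5.12 and 22.5 in the kidney libraries, and lung replicate 1 and kidney replicate 2 carried more of the trace for all 10 genes of each set. The size of the largest differences rests on these trace levels, and their part in the results was not tested.

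Genes were tested with limma on log2(rescaled FPKM + 1). Called genes are those that differed by more than 1 on the log2 scale with an adjusted p (Benjamini-Hochberg) below 0.05. Differences are kidney minus lung, given with their standard error (SE), and the pseudocount understates the change of genes at low levels. Of the 14549 genes, 2992 (20.6%) were higher in kidney and 2955 (20.3%) higher in lung, which is 40.9% in all, and the median difference over all genes was 0.02. The log2 difference exceeded 3, an 8-fold change on this scale, in favour of kidney for 638 called genes and of lung for 447. The libraries of the tissues did not overlap in 11490 genes (79%), which is the background for any count of genes whose groups do not overlap. With 2 libraries against 2, an exact permutation test of a single value cannot give a two-sided p below 0.333, and p-values are those of limma, which borrows the spread from all genes. On the deposited values without rescaling, the median difference over the 15146 genes kept was -0.89, with 1445 genes higher in kidney and 6718 in lung, and leaving out mitochondrial genes and scaling to the same sum gave a median of -0.35 with 2189 and 3793.

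**Figure D1:**
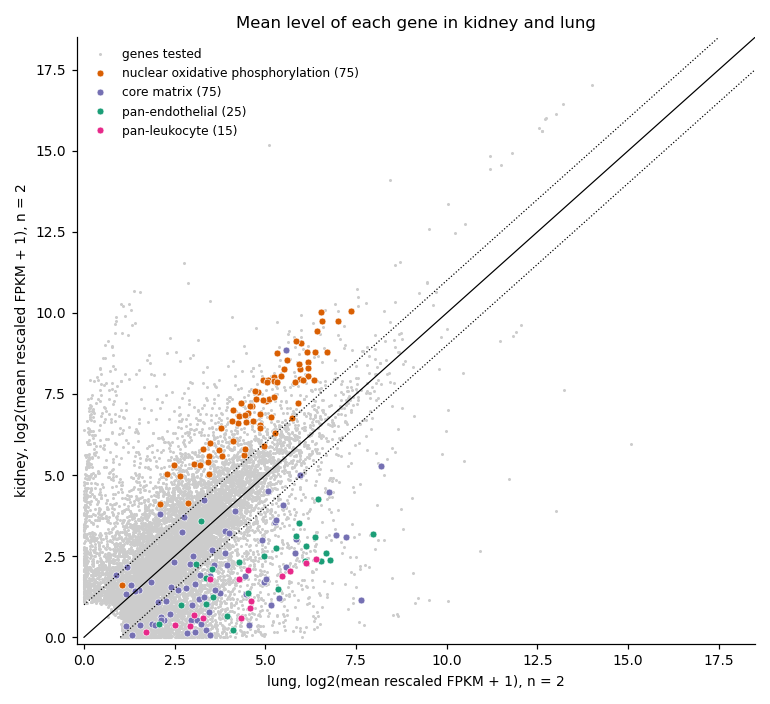
Mean rescaled FPKM of each of the 14549 genes in lung (horizontal axis) and kidney (vertical axis), both as log2 of the mean over 2 libraries plus 1, with the solid line at equal levels and dotted lines at a log2 difference of 1. Nuclear oxidative phosphorylation genes (75) lie above the line, and the pan-leukocyte genes (15), all but 1 of the pan-endothelial genes (25) and most core matrix genes (75) lie below it.

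**Figure D2:**
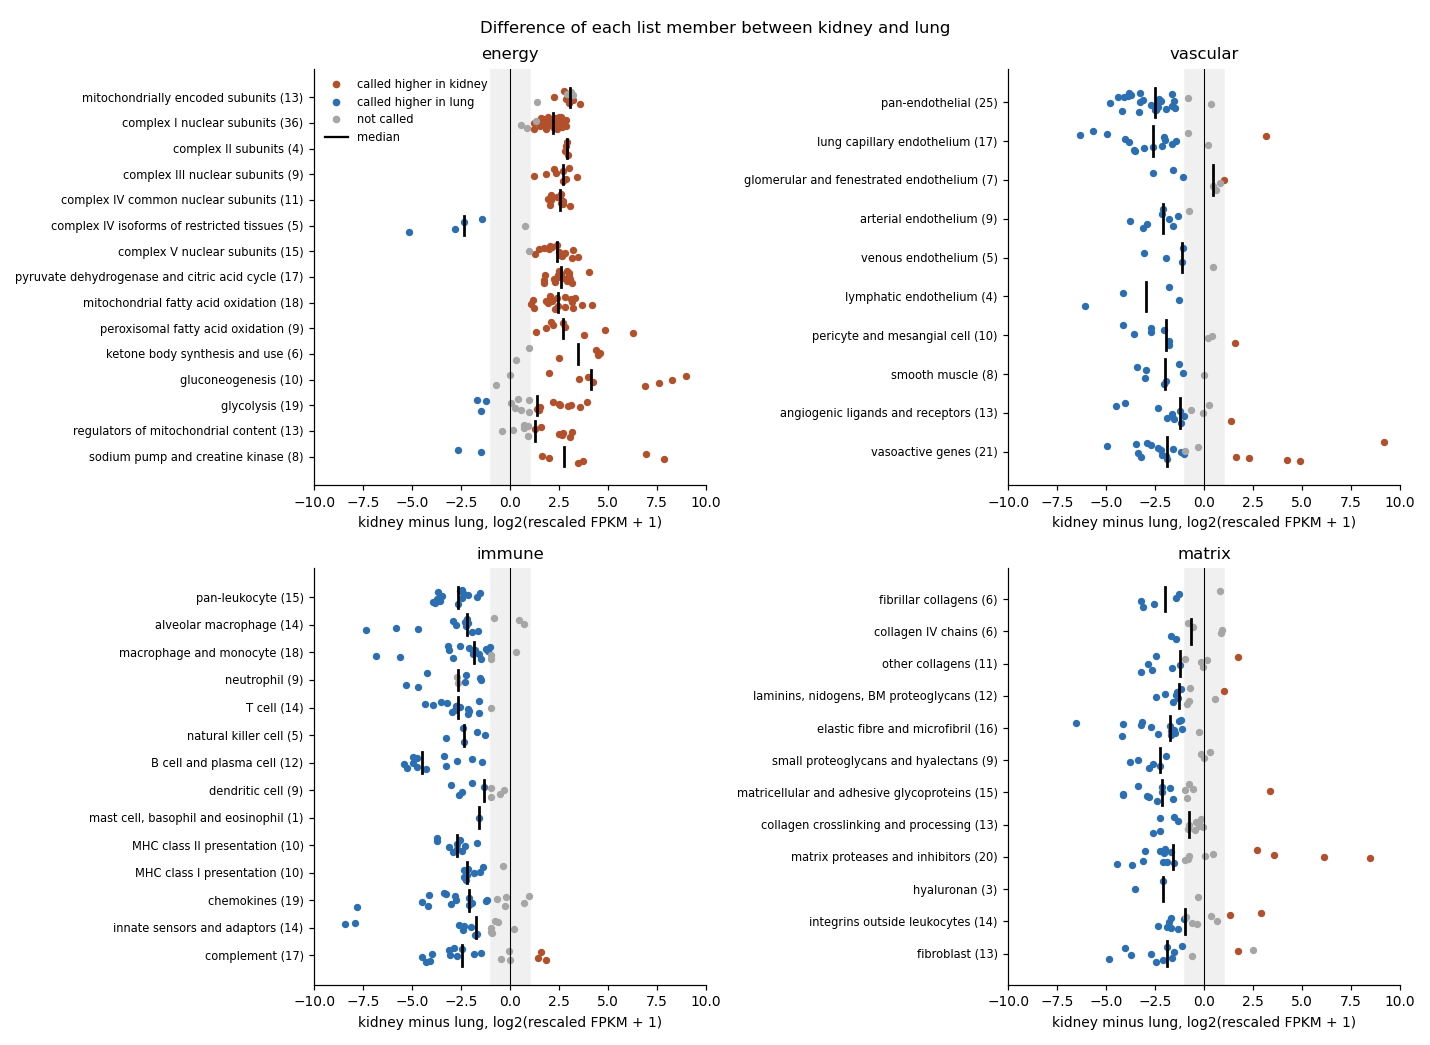
Log2 difference (kidney minus lung) of each tested member of the energy, vascular, immune and matrix lists, with the number of members in brackets, the median as a black bar and the band from -1 to 1 in grey. Called members are to the right for nearly all energy lists and to the left for the vascular, immune and matrix lists, with the exceptions named in the text.

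Of 75 nuclear genes of oxidative phosphorylation, which encode the subunits of respiratory complexes I to IV and of ATP synthase, 71 were higher in kidney and none in lung, with a median difference of 2.31 against 0.02 over all genes. By complex, the called members were 33 of 36 for complex I, 4 of 4 for complex II, 9 of 9 for complex III, 11 of 11 for the common subunits of complex IV and 14 of 15 for ATP synthase. Together these 75 genes took 4.31% and 4.75% of the summed FPKM outside mitochondrial genes in kidney, and 1.06% and 1.13% in lung. Atp5b, the catalytic beta subunit of ATP synthase, was at 905 and 1183 in the kidney libraries and 92.9 and 90.5 in the lung libraries (difference 3.48 ± 0.34, limma adjusted p = 0.000686). Uqcrfs1, the Rieske iron-sulphur protein of complex III, was at 332 and 535 in kidney and 38.7 and 38.9 in lung, a difference of 3.41 ± 0.34. Both kidney libraries stood far above both lung libraries for these genes, with replicate 2 the higher in kidney. The 4 genes not called were Ndufb2, Ndufa7, Ndufc2 and Atp5g2, all with positive differences between 0.57 and 1.30, of which those of Ndufb2, Ndufa7 and Atp5g2 turned negative on the deposited values. Ndufc2 was at 105 and 50.1 in kidney and 13.2 and 61.5 in lung, and the tissues overlapped. Without lung replicate 1 the number called fell to 36, without lung replicate 2 to 39, and on the deposited values to 46, with none called higher in lung in any of these.

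The 13 subunits encoded by the mitochondrial genome had a median difference of 3.07, and all 13 were positive with no overlap between the tissues. Only 8 of them were called. mt-Nd1, a core subunit of complex I, was at 21369 and 36755 in the kidney libraries and 2447 and 2198 in the lung libraries (3.59 ± 0.83, limma adjusted p = 0.0146), and mt-Atp8, a small subunit of ATP synthase, at 458 and 540.1 in kidney and 65.4 and 78.2 in lung (2.78 ± 0.31). The kidney replicates stood further apart in mt-Nd1 than in mt-Atp8, and both lay above the lung libraries. For mt-Co1, mt-Co2, mt-Co3, mt-Atp6 and mt-Nd3 the limma adjusted p was between 0.0504 and 0.0958. The call of mt-Nd1 was lost with no filter on low values, with the replicate number as a block in the fit (the replicate block) and when either lung replicate was left out. The count of 8 depended on the fit, being 3 under the replicate block, 2 with no filter, 5 with a pseudocount of 0.1, 1 when either lung replicate was left out and 13 without kidney replicate 1. Reads from these genes can also be assigned to nuclear copies of the mitochondrial genome, so the level of a single gene is uncertain.

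Subunits of complex IV that replace the common form in certain tissues went the other way, with 4 of 5 higher in lung. Cox4i2, the lung isoform of subunit 4, was at 0.723 and 1.43 in the kidney libraries and 65.2 and 79.4 in the lung libraries (-5.16 ± 0.25, adjusted p = 0.000117), while the common form Cox4i1 was at 313 and 576 in kidney and 105 and 98.8 in lung (2.05 ± 0.40), a call lost on the deposited values and when either lung replicate was left out. Per unit length, lung held 61.9 and 80.4 Cox4i2 for every 100 Cox4i1, and kidney 0.231 and 0.248. This ratio is taken within a library and does not depend on the scaling between libraries. Ndufa4l2, a paralogue of the complex IV subunit Ndufa4 that is known from pericytes, followed the same pattern, with 25.2 and 23.2 per 100 Ndufa4 in lung and 0.310 and 0.236 in kidney. Cox6a2, Cox8b and Cox6b2, the first and second of them heart and muscle isoforms, were also higher in lung, with differences of -2.83, -2.35 and -1.44. Cox7a1, another muscle isoform, was at 5.32 and 5.93 in kidney and 2.57 and 3.24 in lung and was not called, and its difference turned negative on the deposited values. All 8 tested markers of cardiac muscle, such as Actc1 at 0.106 and 0.380 in kidney and 54.9 and 58.4 in lung and Myl7 at 1.54 and 1.04 in kidney and 73.3 and 70.02 in lung, were higher in lung too (median -3.39), and their part in the muscle isoforms was not tested.

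Genes of fuel oxidation were also higher in kidney. All 17 genes of pyruvate dehydrogenase and the citric acid cycle, all 18 tested genes of mitochondrial fatty acid oxidation and all 9 of peroxisomal fatty acid oxidation were higher in kidney, with medians of 2.61, 2.43 and 2.70. Acadm, the medium-chain acyl-CoA dehydrogenase, was at 217 and 268 in the kidney libraries and 11.6 and 12.9 in the lung libraries (4.20 ± 0.25). Ehhadh, the bifunctional enzyme of peroxisomal beta-oxidation, was at 264 and 286 in kidney and 2.596 and 2.61 in lung (6.26 ± 0.21, adjusted p = 8.89e-05). Suclg2, the GTP-forming subunit of succinyl-CoA ligase, led the citric acid cycle at 118 and 151 in kidney and 7.17 and 7.301 in lung (4.03 ± 0.23). In each case both kidney libraries exceeded both lung libraries several-fold and the replicates were close. For ketone bodies, the enzymes of their use were higher in kidney, with Oxct1, which activates acetoacetate, at 444 and 573 in kidney and 23.4 and 17.4 in lung (4.57 ± 0.30) and Bdh1 at 39.1 and 51.1 in kidney and 1.25 and 0.774 in lung (4.52 ± 0.23).

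Gluconeogenesis was the energy list with the highest median, 4.12, and 8 of its 10 genes were higher in kidney. Fbp1, fructose-1,6-bisphosphatase, was at 669 and 895 in the kidney libraries and 2.06 and 0.987 in the lung libraries (8.30 ± 0.31), G6pc, the glucose-6-phosphatase catalytic subunit that releases free glucose, at 310.2 and 351 in kidney and 0.997 and 0.478 in lung (7.59 ± 0.24), and Pck1, cytosolic phosphoenolpyruvate carboxykinase, at 729.9 and 458 in kidney and 6.07 and 2.25 in lung (6.92 ± 0.46). In lung, replicate 1 exceeded replicate 2 for all 3 genes, the same order as in the trace described above. The mitochondrial form Pck2 was at 1.77 and 1.69 in kidney and 3.505 and 3.54 in lung and the aminotransferase Gpt at 11.9 and 13.1 in kidney and 13.1 and 11.7 in lung, and neither was called. Glycolysis was mixed, with 10 of 19 tested genes higher in kidney and 3 in lung. Enzymes of the triose steps were higher in kidney, with Tpi1 at 266 and 404 in kidney and 27.04 and 27.1 in lung (3.55 ± 0.31) and Pgk1 at 317 and 424 in kidney and 42.1 and 40.7 in lung (3.12 ± 0.29). The 3 genes higher in lung were Hk2, the regulator Pfkfb3 and the lactate exporter Slc16a3. Pfkfb3 was at 1.89 and 1.002 in kidney and 7.51 and 6.304 in lung. Hk2 (0.0668 and 0.0686 in kidney and 1.97 and 2.01 in lung) and Slc16a3 (0.182 and 0.212 in kidney and 1.45 and 2.23 in lung) were at low levels. Pkm, pyruvate kinase, was at 36.1 and 45.6 in kidney and 38.97 and 39.98 in lung with a difference of 0.04 ± 0.24. The H-type lactate dehydrogenase Ldhb was 4.06 and 3.48 times the M-type Ldha in kidney and 1.05 and 1.20 times in lung, per unit length. With either lung replicate left out, 6 glycolytic genes were called higher in kidney, and on the deposited values, where 22 of the listed genes passed the filter, 7 were called higher in kidney and 6 in lung. Aldoa, which every cell uses, was listed near 0 in all 4 libraries, so its value was not read.

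Among regulators of mitochondrial content, 7 of 13 were higher in kidney and none in lung. Ppara, the nuclear receptor that drives fatty acid oxidation genes, was at 13.99 and 8.44 in the kidney libraries and 0.305 and 0.342 in the lung libraries (3.17 ± 0.26), and the coactivator Ppargc1a at 19.4 and 9.55 in kidney and 0.938 and 0.581 in lung (3.07 ± 0.35). The oestrogen-related receptor genes Esrra and Esrrg were higher in kidney by 2.64 and 2.72, and Esrrb was called as well, at 5.51 and 3.86 in kidney and listed at 0 in both lung libraries. In all of these kidney replicate 1 was the higher, opposite to most respiratory chain genes. Nrf1, which encodes nuclear respiratory factor 1, was at 1.63 and 1.58 in kidney and 2.32 and 2.66 in lung and Gabpa at 6.49 and 4.18 in kidney and 4.67 and 4.61 in lung, and neither was called. Of 8 genes of the sodium pump and of creatine metabolism 6 were higher in kidney and 2 in lung. The pump subunit gene Atp1b1 was at 625 and 669 in kidney and 59.3 and 37.8 in lung (3.74 ± 0.34). The pump's gamma subunit Fxyd2 differed by 7.87 ± 0.32. Gatm, the first enzyme of creatine synthesis, was at 349 and 479 in kidney and 3.07 and 1.802 in lung. The creatine kinase genes Ckb and Ckmt1 differed by 1.64 ± 0.25 and 2.01 ± 0.25, calls lost on the deposited values and for Ckb also when either lung replicate was left out, whereas the muscle creatine kinases Ckm and Ckmt2 were listed at 0 in kidney and at 2.45 and 1.35 and 5.13 and 5.51 in lung.

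**Figure D3:**
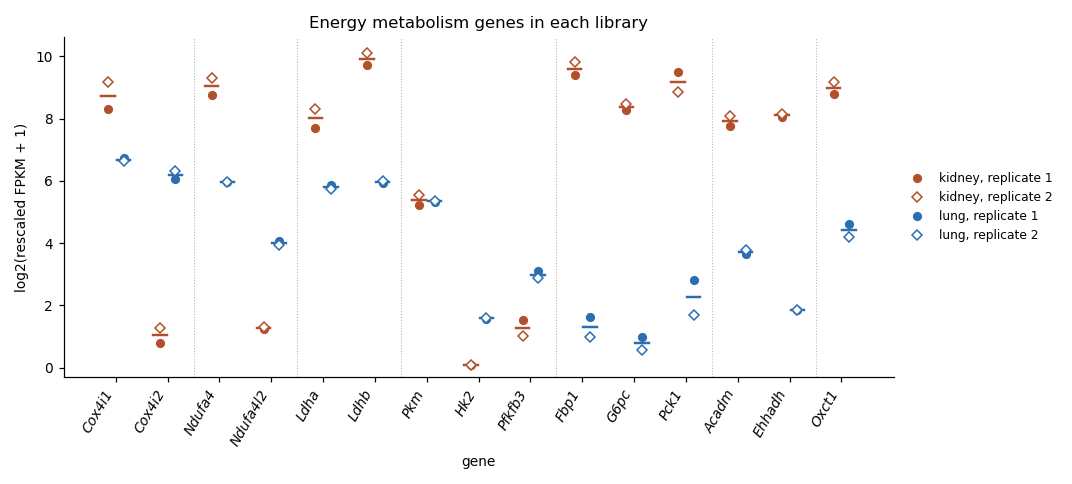
Log2(rescaled FPKM + 1) of 15 energy metabolism genes in each library, with kidney in brown and lung in blue, replicate 1 as circles, replicate 2 as open diamonds and the mean of 2 as a bar. Cox4i2 and Ndufa4l2 are higher in lung, Ldhb exceeds Ldha mainly in kidney, and the gluconeogenic genes are far lower in lung than in kidney.

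Endothelial genes were higher in lung. Of 25 pan-endothelial genes 23 were higher in lung and none in kidney, with a median of -2.51. Cldn5, the endothelial tight junction claudin, was at 7.01 and 9.05 in the kidney libraries and 215 and 286 in the lung libraries (-4.79 ± 0.27, adjusted p = 0.000162). Cdh5, VE-cadherin, was at 4.46 and 3.703 in kidney and 84.8 and 97.4 in lung (-4.18 ± 0.21) and Pecam1 at 6.35 and 5.74 in kidney and 66.5 and 70.9 in lung (-3.31 ± 0.20). Both lung libraries exceeded both kidney libraries more than 8-fold in these genes. The 25 genes summed to 0.0425% and 0.0260% of the FPKM outside mitochondrial genes in kidney and 0.424% and 0.506% in lung. Emcn, endomucin, was the gene that went against the list, at 9.95 and 12.2 in kidney and 8.57 and 8.15 in lung with a difference of 0.36 ± 0.20, not called, which turned negative on the deposited values and with mitochondrial genes left out. Relative to Pecam1 in the same library, Emcn was at 1.57 and 2.13 in kidney and 0.129 and 0.115 in lung. Mmrn2, a matrix protein of vessels, was at 3.65 and 3.92 in kidney and 7.87 and 7.07 in lung and passed the p threshold but not that of size (-0.82 ± 0.18).

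Genes of lung capillary endothelium were higher in lung for 14 of 17. Tmem100, a target of endothelial BMP signalling, was at 0.999 and 1.16 in the kidney libraries and 173 and 167 in the lung libraries (-6.36 ± 0.19), Foxf1, a transcription factor of lung mesenchyme and endothelium, at 0.0943 and 0.339 in kidney and 53.3 and 68.7 in lung (-5.67 ± 0.22), and Prx at 0.133 and 0.220 in kidney and 19.1 and 18.1 in lung (-4.06 ± 0.17). Both kidney libraries were at or below 1.16 for these 3 genes. Car4 marks the aerocyte capillaries of the alveolus and is also a brush border enzyme of the proximal tubule. It was at 83.6 and 130.2 in kidney and 90.5 and 90.3 in lung, so the tissues overlapped, and did not pass (0.20 ± 0.32). Its difference turned negative under 3 other scalings and without kidney replicate 2. Cyp4b1 was higher in kidney at 1344 and 2036 in kidney and 164 and 203 in lung (3.18 ± 0.42), a call lost when either lung replicate was left out. Of 7 genes of glomerular and fenestrated endothelium 3, Gata5, Tbx3 and Plvap, were higher in lung and 1 in kidney. The median of the list was 0.48, the difference of Plat, and 4 of the 7 were positive, among them Sema5a (0.79, not called). The gene higher in kidney was Igfbp5 at 48.6 and 38.4 in kidney and 19.8 and 22.00 in lung, and this call was lost under 7 of 17 alternatives, among them leaving out either lung library or kidney replicate 1, and its direction turned on the deposited values. Ehd3, a marker of glomerular endothelium, was at 11.9 and 9.38 in kidney and 7.197 and 6.11 in lung and Plat at 9.75 and 7.47 in kidney and 6.65 and 5.14 in lung, and neither was called or kept its sign on the deposited values. Tbx3, a transcription factor gene, was at 0.550 and 0.464 in kidney and 8.79 and 7.78 in lung (-2.62 ± 0.17). Plvap, the protein of fenestral diaphragms, was higher in lung, at 46.9 and 52.9 in kidney and 126 and 188 in lung (-1.61 ± 0.30), a call lost without lung replicate 2. Of 9 arterial genes tested 8 were higher in lung, and all 4 lymphatic genes tested were higher in lung, led by Lyve1 at 0.156 and 0.210 in kidney and 85.2 and 74.1 in lung (-6.09 ± 0.19). Of 5 venous genes tested 4 were higher in lung, and Nr2f2, the gene not called, was at 7.304 and 25.6 in kidney and 17.3 and 5.54 in lung, with replicates of the tissues overlapping.

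Mural cell genes were mostly higher in lung. Of 10 tested genes of pericytes and mesangial cells 7 were higher in lung. Abcc9 and Kcnj8 were not called, with positive differences of 0.39 and 0.20 that turned negative on the deposited values. Rgs5 was higher in kidney, at 9.097 and 7.52 in the kidney libraries and 2.797 and 1.49 in the lung libraries (1.59 ± 0.26). Its call was lost without lung replicate 2 and on the deposited values. Postn, periostin, was at 0.353 and 0.247 in kidney and 23.3 and 21.4 in lung (-4.17 ± 0.17) and Pdgfrb at 2.82 and 2.0002 in kidney and 9.35 and 12.3 in lung (-1.79 ± 0.23). Of 8 smooth muscle genes tested 7 were higher in lung, with Acta2 at 19.7 and 27.1 in kidney and 100.1 and 99.2 in lung (-2.06 ± 0.26) and Des at 2.49 and 1.72 in kidney and 32.7 and 32.1 in lung (-3.44 ± 0.21). The smoothelin gene Smtn was at 8.53 and 6.55 in kidney and 7.502 and 7.29 in lung (0.01 ± 0.20) and the tissues overlapped. Tagln was below the filter, and 67.9% of its exon length is shared with exons of other annotated genes, so its value was not read.

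Of 13 tested angiogenic ligands and receptors 9 were higher in lung and 1, Vegfb, in kidney. Vegfa was at 59.5 and 51.9 in the kidney libraries and 122 and 129 in the lung libraries (-1.16 ± 0.25) and Vegfb at 27.8 and 40.3 in kidney and 11.7 and 12.9 in lung (1.38 ± 0.25). Vegfa was higher in lung and Vegfb in kidney, and the calls were lost when either lung replicate was left out, Vegfb also under 3 other scalings. Within a library, Vegfb stood at 0.468 and 0.776 of Vegfa in kidney and 0.0964 and 0.0998 in lung. Acvrl1, the endothelial BMP9 receptor, was at 2.64 and 2.18 in kidney and 69.6 and 84.99 in lung (-4.52 ± 0.21) and Bmpr2 at 2.6005 and 1.86 in kidney and 13.03 and 17.9 in lung (-2.34 ± 0.24). Epas1, which encodes the hypoxia-inducible factor HIF-2 alpha, was at 19.9 and 11.7 in kidney and 243 and 291 in lung (-4.03 ± 0.33), whereas Hif1a was at 8.14 and 6.98 in kidney and 5.82 and 6.53 in lung and was not called (0.25 ± 0.19), with a sign that turned on the deposited values and with mitochondrial genes left out. The ratio of Hif1a to Epas1 was 0.409 and 0.597 in kidney and 0.0239 and 0.0225 in lung.

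Vasoactive genes were called in both directions. Of 21 tested, 5 were higher in kidney and 14 in lung, against 20.6% and 20.3% of all genes tested. Renin (Ren1), the secreted protease of the juxtaglomerular cells, was at 26.6 and 32.1 in the kidney libraries and 0.0415 and 0 in the lung libraries (4.89 ± 0.19, adjusted p = 8.89e-05). Angiotensinogen (Agt), its substrate, was at 24.5 and 34.7 in kidney and 0.582 and 0.638 in lung (4.23 ± 0.23), and the receptor gene Agtr1a at 13.4 and 18.8 in kidney and 4.19 and 4.69 in lung (1.63 ± 0.23), whose call was lost without lung replicate 1 and on the deposited values. Renin rested on 1 read in lung replicate 1 and 0 in replicate 2, so its difference depends on the pseudocount. The converting enzyme gene Ace was higher in lung, at 26.7 and 29.4 in kidney and 107 and 105 in lung (-1.88 ± 0.23). Tissue kallikrein (Klk1), which releases kinins, was at 1631 and 1593 in kidney and 2.81 and 1.02 in lung (9.18 ± 0.36).

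Endothelin 1 (Edn1) was higher in lung, at 1.01 and 1.48 in the kidney libraries and 23.1 and 16.5 in the lung libraries (-3.20 ± 0.24), as were its converting enzyme Ece1 at 11.1 and 11.6 in kidney and 45.3 and 47.6 in lung (-1.94 ± 0.20) and the receptor Ednra at 0.239 and 0.206 in kidney and 3.68 and 5.35 in lung (-2.16 ± 0.20). Ligand, enzyme and receptor were thus all higher in lung. Calcrl, the receptor that binds adrenomedullin together with Ramp2, was at 1.66 and 1.07 in kidney and 64.8 and 80.7 in lung (-4.97 ± 0.23) and Ramp2 at 3.69 and 4.72 in kidney and 106 and 113 in lung (-4.41 ± 0.22), whereas the ligand Adm was at 4.29 and 3.67 in kidney and 4.16 and 6.13 in lung and was not called. Of the nitric oxide pathway, the synthase Nos3 was low in both tissues at 0.414 and 0.297 in kidney and 1.88 and 1.601 in lung, a difference of -1.01 ± 0.14 that lost its call under 4 of 16 alternatives, among them leaving out lung replicate 1 or kidney replicate 2. Its effector, soluble guanylate cyclase (Gucy1b1), was at 1.61 and 1.07 in kidney and 21.4 and 28.5 in lung (-3.47 ± 0.23), and Pde5a, which breaks down cGMP, at 0.435 and 0.240 in kidney and 7.35 and 10.9 in lung (-2.90 ± 0.23). Prostacyclin synthase (Ptgis) was at 1.11 and 0.878 in kidney and 19.8 and 19.4 in lung (-3.37 ± 0.18). Other annotated genes overlap 32.3% of the exon length of Nos3 and 33.4% of that of Ramp2, so their levels are uncertain.

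**Figure D4:**
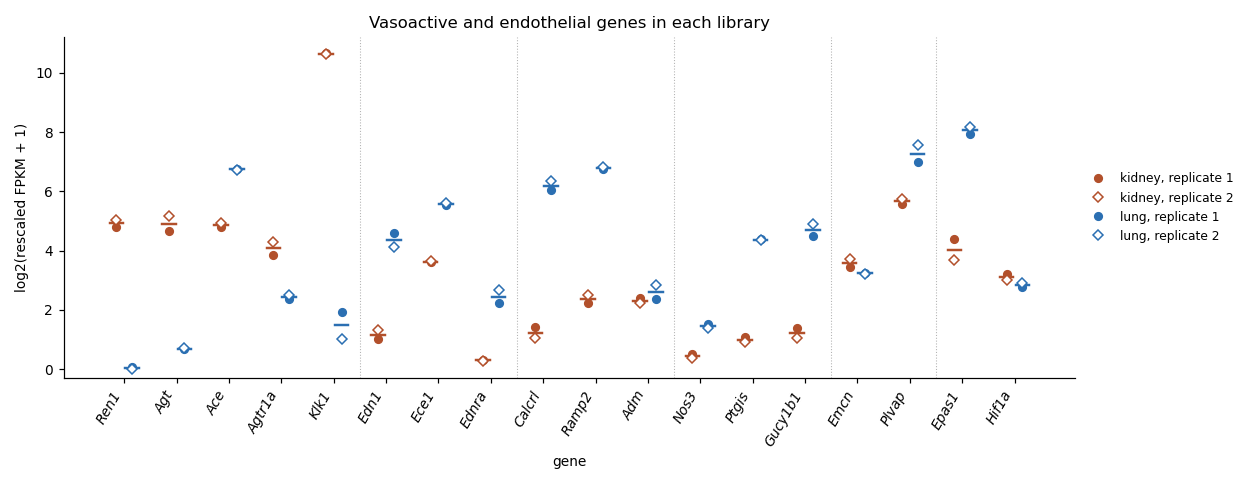
Log2(rescaled FPKM + 1) of 18 vasoactive and endothelial genes in each library, with kidney in brown and lung in blue, replicate 1 as circles, replicate 2 as open diamonds and the mean of 2 as a bar. Ren1, Agt, Agtr1a and Klk1 are higher in kidney, Ace and the endothelin, adrenomedullin receptor and cGMP genes are higher in lung, and Emcn, Adm and Hif1a were not called.

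Leukocyte genes were higher in lung in most classes. All 15 pan-leukocyte genes were higher in lung, with a median of -2.67. Ptprc, the CD45 antigen of all leukocytes, was at 0.631 and 0.403 in the kidney libraries and 8.04 and 9.26 in the lung libraries (-2.67 ± 0.18, adjusted p = 0.000243), and Laptm5 at 4.496 and 4.22 in kidney and 65.7 and 101 in lung (-3.95 ± 0.27). The list summed to 0.00848% and 0.00655% of the FPKM outside mitochondrial genes in kidney and 0.132% and 0.167% in lung. Both lung libraries exceeded both kidney libraries more than 8-fold in this share. Globin genes, a measure of blood in the tissue, were higher in lung too, with Hba-a1 at 217 and 1043 in kidney and 3375 and 3887 in lung (-2.92 ± 0.84). Kidney replicate 2 held several times the globin of kidney replicate 1, whereas pan-leukocyte genes did not differ in that way between the kidney replicates. The 5 erythroid genes were all called (median -2.67), but none was called when either lung replicate was left out and 1 was called with no filter on low values, and the part of blood in the leukocyte difference was not tested.

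Of myeloid genes, 11 of 14 tested alveolar macrophage genes and 15 of 18 macrophage and monocyte genes were higher in lung. Chil3, a secreted chitinase-like protein of alveolar macrophages, was at 0.0698 and 0.502 in the kidney libraries and 232 and 191 in the lung libraries (-7.38 ± 0.25), and Ear2, a ribonuclease, at 0.396 and 0.427 in kidney and 85.5 and 73.2 in lung (-5.83 ± 0.19). Lyz2, lysozyme M of myeloid cells and alveolar type 2 cells, was at 20.4 and 36.8 in kidney and 3536 and 3153 in lung (-6.88 ± 0.41). The medians of these lists were -2.22 and -1.83. The C1q genes C1qa, C1qb and C1qc were higher in lung (differences -1.87, -1.61 and -1.87), the calls of C1qb and C1qc were lost without lung replicate 1 and that of C1qb also without lung replicate 2, and the receptor gene Csf1r was at 7.87 and 7.798 in kidney and 15.3 and 17.6 in lung (-0.98 ± 0.19, not called). Atp6v0d2 and Fabp4 of the alveolar macrophage list, genes that tubule or fat cells also express, were not called, at 12.04 and 9.28 in kidney and 8.93 and 6.398 in lung and at 6.88 and 12.1 in kidney and 6.97 and 3.96 in lung. Neutrophil genes varied between the lung mice. S100a9 was at 0.218 and 0.785 in kidney and 24.4 and 139.9 in lung (-5.34 ± 0.79) and Ngp, a granule protein, at 0 and 0.168 in kidney and 1.35 and 20.5 in lung (-2.72 ± 0.99, not called). Lung replicate 2 exceeded replicate 1 in the neutrophil genes tested, of which 7 of 9 were called, except Ltf, lactoferrin, at 26.1 and 14.5.

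Lymphocyte genes were higher in lung for 13 of 14 T cell, all 5 natural killer cell and all 12 B cell and plasma cell genes tested. B cell and plasma cell genes had a median of -4.51, the lowest of the 14 immune lists. Cd79a, a chain of the B cell receptor, was at 0.391 and 0.562 in the kidney libraries and 44.8 and 69.9 in the lung libraries (-5.27 ± 0.27), Ighm at 3.26 and 3.91 in kidney and 211 and 181 in lung (-5.42 ± 0.22) and Igha, the heavy chain of IgA, at 35.5 and 49.9 in kidney and 1838 and 981 in lung (-4.96 ± 0.44). Cd79a was higher in lung replicate 2, whereas Ighm, Igha and the joining chain Jchain (531 and 319) were higher in replicate 1. Trbc2, a constant segment of the T cell receptor, was at 1.07 and 1.48 in kidney and 43.4 and 46.6 in lung (-4.34 ± 0.20), and Ccr7, the homing receptor of naive T cells and mature dendritic cells, at 0.0288 and 0.466 in kidney and 11.1 and 16.00 in lung (-3.55 ± 0.27). Cd8a was just short of the size threshold (-0.99 ± 0.14). Of 9 dendritic cell genes tested 5 were called, with Ccl17 at 0.443 and 0.398 in kidney and 12.4 and 8.58 in lung (-2.997 ± 0.22), and all 9 had negative differences.

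Genes of antigen presentation were expressed in both organs. All 10 genes of MHC class II presentation were higher in lung (median -2.70), with H2-Aa at 32.1 and 56.7 in the kidney libraries and 335 and 321 in the lung libraries (-2.91 ± 0.36) and the invariant chain Cd74 at 83.4 and 172 in kidney and 1119.6 and 958 in lung (-3.10 ± 0.46). Of 10 genes of class I presentation 9 were higher in lung (median -2.19), with B2m at 202 and 357 in kidney and 1421 and 1367 in lung (-2.37 ± 0.46). The call of Cd74 was lost without lung replicate 1 and that of B2m when either lung replicate was left out. Kidney replicate 2 was the higher kidney library for most of these, and both lung libraries exceeded it. Of 19 chemokine genes tested 14 were higher in lung and none in kidney. Cxcl15, known as lungkine, led at 0.375 and 0.867 in kidney and 392 and 339 in lung (-7.84 ± 0.25), followed by the B cell attractant Cxcl13 at 0.347 and 0.178 in kidney and 33.5 and 21.8 in lung (-4.48 ± 0.26). Cxcl12 (11.02 and 10.6 in kidney and 13.6 and 13.1 in lung), Cxcl16 (12.8 and 21.02 in kidney and 19.5 and 18.4 in lung) and Cx3cl1 (11.1 and 9.62 in kidney and 4.897 and 7.08 in lung) were not called, with differences between -0.28 and 0.71, the latter negative on the deposited values. Of 14 innate sensor and adaptor genes tested 8 were higher in lung. Among these 8 were the surfactant protein genes Sftpa1 and Sftpd (-8.44 and -7.92), which were also counted as alveolar type 2 markers. Cd14, the lipopolysaccharide co-receptor, was at 1.41 and 2.21 in kidney and 14.9 and 12.6 in lung (-2.40 ± 0.22). Tmem173, which encodes STING, was at 0.817 and 1.11 in kidney and 8.99 and 8.96 in lung (-2.35 ± 0.18).

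Complement was the immune list with genes called in both directions. Of 17 tested 11 were higher in lung, and 3, Cfb, Cfi and Cd59a, were higher in kidney. Over all genes tested 20.3% were called higher in lung and 20.6% in kidney. C3, the central component, was at 2.18 and 3.803 in the kidney libraries and 77.6 and 74.9 in the lung libraries (-4.30 ± 0.26), and C7 at 0.809 and 0.459 in kidney and 26.4 and 22.7 in lung (-3.97 ± 0.20). Factor B (Cfb), which forms the alternative pathway convertase, was at 2.601 and 2.94 in kidney and 0.0973 and 0.0186 in lung (1.83 ± 0.14), although other annotated genes overlap 79.5% of its exons. Factor I (Cfi), a protease that inactivates C3b, was at 2.18 and 3.18 in kidney and 0.464 and 0.260 in lung (1.43 ± 0.19), and Cd59a, which blocks the membrane attack complex, at 34.7 and 39.8 in kidney and 12.98 and 10.6 in lung (1.59 ± 0.22). The calls of Cfi and Cd59a were lost on the deposited values, and that of Cd59a also without lung replicate 2.

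Of 75 tested core matrix genes, which join collagens, basement membrane, elastic fibre, proteoglycan and matricellular genes, 51 were higher in lung, 3 were higher in kidney and 21 were not called, with a median of -1.58. A further 20 of the 95 listed genes did not reach the filter. Col1a1 and Col3a1, chains of the main fibrillar collagens, were at 1.48 and 1.53 in the kidney libraries and 22.9 and 18.9 in the lung libraries (-3.12 ± 0.19) and at 2.87 and 1.7005 in kidney and 33.8 and 26.1 in lung (-3.25 ± 0.26). Elastic fibre genes were higher in lung for 15 of 16. Elastin (Eln) was at 1.31 and 0.683 in kidney and 36.6 and 32.8 in lung (-4.18 ± 0.23) and Mfap4, a microfibril protein, at 0.711 and 1.705 in kidney and 186 and 212 in lung (-6.54 ± 0.28). Both kidney libraries were far below both lung libraries for Eln and Mfap4. The exception of the list was fibulin 5 (Fbln5), at 14.4 and 13.2 in kidney and 16.6 and 17.3 in lung, which did not pass (-0.28 ± 0.19). The small proteoglycan genes Dcn and Ogn were higher in lung, with differences of -2.83 and -3.81, and Fmod (0.02 ± 0.17) was not called.

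Basement membrane genes were called in both directions, and of all genes tested 20.6% were called higher in kidney and 20.3% in lung. Of the 6 collagen IV chains, only Col4a1 and Col4a2, the pair found in all basement membranes, were called. Col4a1 was at 17.1 and 14.4 in the kidney libraries and 44.8 and 42.5 in the lung libraries (-1.42 ± 0.21) and Col4a2 at 12.5 and 9.07 in kidney and 37.3 and 37.2 in lung (-1.71 ± 0.23), both higher in lung, with the call of Col4a1 lost when either lung replicate was left out. Col4a3 and Col4a4, chains of the mature glomerular and alveolar basement membranes, were at 16.9 and 7.35 in kidney and 5.92 and 5.56 in lung and at 22.2 and 13.4 in kidney and 8.42 and 9.32 in lung, with positive differences of 0.86 ± 0.38 and 0.89 ± 0.28 that did not pass and turned negative on the deposited values. Kidney replicate 1 exceeded replicate 2 in both, and the tissues did not overlap. The sum of Col4a3 and Col4a4 was 1.32 and 0.885 of the sum of Col4a1 and Col4a2 in kidney, and 0.175 and 0.187 in lung. The widely used pair thus led in lung, and in kidney the order differed between the replicates. Col18a1, the collagen that carries endostatin, was higher in kidney at 14.5 and 11.5 in kidney and 3.19 and 3.305 in lung (1.71 ± 0.20), a call lost on the deposited values. Of 12 tested genes of laminins, nidogens and basement membrane proteoglycans 7 were higher in lung, with Lamb3 at 0.465 and 0.403 in kidney and 6.63 and 6.88 in lung (-2.44 ± 0.16), and Nid2 higher in kidney at 3.45 and 2.16 in kidney and 0.930 and 0.720 in lung (1.04 ± 0.21). The count for lung was 3 when either lung replicate was left out, and Nid2 lost its call under 6 of 16 alternatives, among them leaving out either lung library or kidney replicate 1. Lama5, a chain of mature epithelial and glomerular laminins, was at 5.87 and 1.798 in kidney and 6.43 and 6.79 in lung and was not called.

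Spp1, osteopontin, had the highest difference of the core matrix genes tested, at 392 and 526 in the kidney libraries and 66.4 and 27.2 in the lung libraries (3.38 ± 0.49, adjusted p = 0.00257). Of 15 tested matricellular and adhesive genes 10 were higher in lung, with Sparc at 32.4 and 42.7 in kidney and 317 and 258 in lung (-2.91 ± 0.29) and Fn1, fibronectin, at 1.93 and 1.201 in kidney and 13.03 and 12.04 in lung (-2.41 ± 0.21). Of 13 tested genes of collagen crosslinking and processing 5 were higher in lung, among them the crosslinking enzymes Lox (-2.63 ± 0.20) and Loxl1 (-2.24 ± 0.18), and the lysyl and prolyl hydroxylases Plod1, Plod2, P4ha1 and P4ha2 had differences between -0.39 and -0.08, none called. On the deposited values all 13 were called.

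Proteases and their inhibitors were also called in both directions. Mmp2 was at 0.845 and 0.395 in the kidney libraries and 20.96 and 17.8 in the lung libraries (-3.66 ± 0.22) and Mmp3 at 0.0633 and 0.455 in kidney and 26.3 and 26.1 in lung (-4.45 ± 0.22). The metalloproteases of the brush border, meprin alpha (Mep1a) and beta (Mep1b), were higher in kidney, at 461 and 577 in kidney and 0.816 and 0.167 in lung (8.47 ± 0.30) and at 81.98 and 117 in kidney and 0.872 and 0.0689 in lung (6.13 ± 0.34). Urokinase (Plau) was at 14.2 and 15.5 in kidney and 0.407 and 0.266 in lung (3.57 ± 0.17). The inhibitors of metalloproteases parted, with Timp3 higher in kidney at 119 and 112 in kidney and 20.5 and 13.7 in lung (2.71 ± 0.28) and Timp2 higher in lung at 10.8 and 10.5 in kidney and 87.2 and 98.4 in lung (-3.01 ± 0.21). Of 20 tested genes of this group 4 were higher in kidney and 11 in lung, against 20.6% and 20.3% of all genes tested. Of 14 integrin genes outside leukocytes 7 were higher in lung and 2 in kidney, namely Itgb8 at 11.9 and 5.13 in kidney and 0.186 and 0.152 in lung (2.93 ± 0.36) and Itgb6 at 8.899 and 9.27 in kidney and 2.57 and 3.43 in lung (1.34 ± 0.20), both beta chains of integrins that activate latent TGF-beta. The call of Itgb6 was lost without lung replicate 1, on the deposited values and with mitochondrial genes left out. Their partner Itgav was at 6.96 and 4.16 in kidney and 3.22 and 3.02 in lung and was not called. Of 3 tested genes of hyaluronan turnover, Cd44, its receptor, was higher in lung at 0.227 and 0.212 in kidney and 12.9 and 13.6 in lung (-3.55 ± 0.16), as was Tmem2 (-2.09 ± 0.19).

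Fibroblast genes included transcription factors of body region. Of 13 tested 10 were higher in lung, with Dpt at 2.21 and 2.44 in the kidney libraries and 107 and 86.96 in the lung libraries (-4.87 ± 0.21) and Tbx4, a T-box gene of lung mesenchyme, at 0 and 0.0602 in kidney and 11.4 and 13.7 in lung (-3.71 ± 0.18). Hoxd10, a posterior Hox gene, was higher in kidney at 2.35 and 3.67 in kidney and 0.379 and 0.0289 in lung (1.73 ± 0.24). Hoxa10 was at 9.95 and 38.5 in kidney and 12.4 and 0 in lung, with lung replicate 1 within the range of kidney and replicate 2 listed at 0, and it was not called. Mesothelial genes, which mark the pleural surface, were higher in lung for 4 of 4, with Msln at 0.404 and 0.339 in kidney and 45.8 and 26.4 in lung (-4.71 ± 0.29). Tcf21, a factor of both lung fibroblasts and kidney podocytes, was at 3.52 and 5.101 in kidney and 19.1 and 24.2 in lung (-2.10 ± 0.24).

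**Figure D5:**
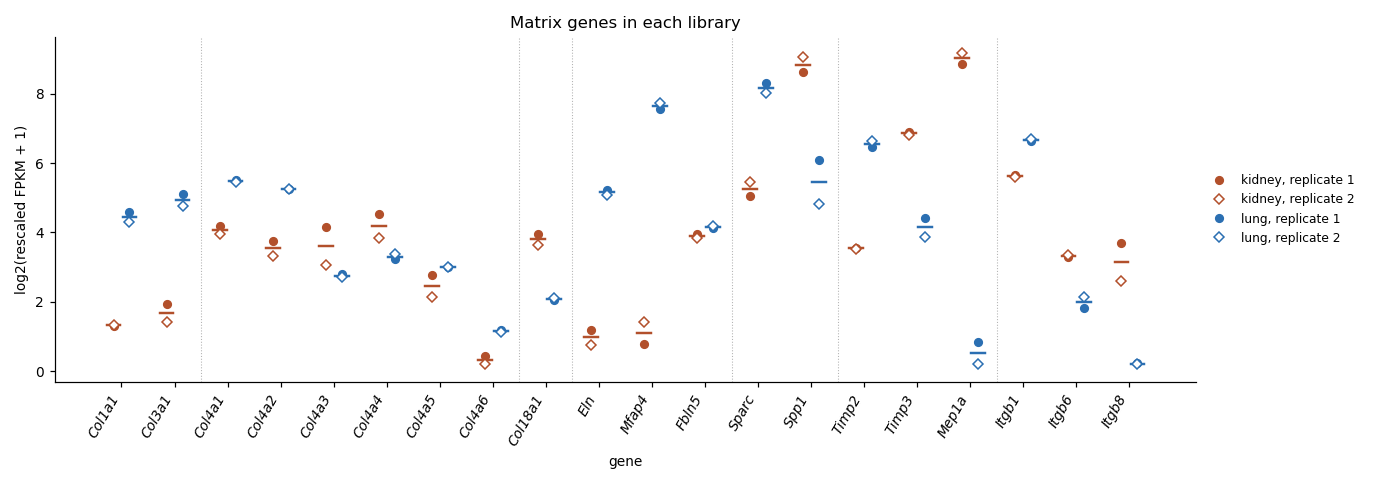
Log2(rescaled FPKM + 1) of 20 matrix genes in each library, with kidney in brown and lung in blue, replicate 1 as circles, replicate 2 as open diamonds and the mean of 2 as a bar. Col1a1, Col3a1, Eln and Mfap4 are higher in lung, Col4a3, Col4a4 and Fbln5 were not called, and Spp1, Timp3, Mep1a and Itgb8 are higher in kidney.

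The largest differences belonged to the parenchyma. In kidney the 4 largest belonged to Kap at 18517 and 56131 in the kidney libraries and 55.03 and 11.4 in the lung libraries (10.25 ± 0.93), Miox, which opens the ring of myo-inositol, at 1199.5 and 2082 in kidney and 2.62 and 0.541 in lung (9.39 ± 0.50), Tmem27, which encodes collectrin, at 894 and 1556 in kidney and 1.78 and 0.306 in lung (9.27 ± 0.47), and Slc34a1, the phosphate transporter of the proximal tubule, at 1205 and 1160.4 in kidney and 1.91 and 0.326 in lung (9.23 ± 0.41). In lung they were led by Sftpc at 5.12 and 22.5 in kidney and 9021 and 7548 in lung (-9.43 ± 0.68), Scgb1a1, the main club cell secretory protein, at 28.4 and 92.7 in kidney and 29643 and 38977 in lung (-9.34 ± 0.70), and Sftpb at 0.550 and 1.77 in kidney and 1111 and 1001 in lung (-8.99 ± 0.34). Surfactant proteins and secretoglobins, 7 genes in all, made up 16.1% and 18.9% of the FPKM outside mitochondrial genes in lung, and Kap with Gpx3 11.7% and 17.5% in kidney. Among the other genes of the 10 largest were Klk1, Akr1c21, Slc7a13, Acsm2 and Ugt2b38 in kidney, with differences from 8.86 to 9.18. In lung they were Sftpa1, Cbr2, Scgb3a2, Ager, Scgb3a1, Sftpd and Cxcl15, from -8.44 to -7.84.

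Outside the lists, the most abundant genes higher in kidney included Gpx3, the secreted glutathione peroxidase made by tubules, at 15577 and 19751 in the kidney libraries and 296 and 398 in the lung libraries (5.67 ± 0.58), and Acy3, which deacetylates mercapturic acids, at 1383 and 2515 in kidney and 7.86 and 4.85 in lung (8.02 ± 0.41). Fth1, ferritin heavy chain, was at 4715 and 8973 in kidney and 1496 and 1379.7 in lung (2.18 ± 0.66, adjusted p = 0.0368), and its call was lost with a pseudocount of 0.1, with no filter on low values, under the replicate block and when either lung replicate was left out. Gm28439 and Gm10222, copies of mitochondrial sequence in the nuclear genome, were higher in kidney by 3.32 and 2.86, calls lost when either lung replicate was left out and for Gm28439 also with no filter and under the replicate block, and their reads cannot be told from those of the mitochondrial genes. In lung they were Igkc, the kappa light chain constant gene, at 155 and 235 in kidney and 12771 and 6329 in lung (-5.55 ± 0.59), Mgp, matrix Gla protein, at 43.3 and 54.8 in kidney and 999 and 874 in lung (-4.23 ± 0.32), Tmsb4x, the actin-binding thymosin beta 4, at 62.2 and 102 in kidney and 1001 and 1006 in lung (-3.64 ± 0.38), and Cst3, cystatin C, at 211 and 399.7 in kidney and 879 and 901 in lung (-1.61 ± 0.46), whose call was lost with no filter, under the replicate block and when either lung replicate was left out. Cbr2, a carbonyl reductase of club cells, was also among them.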

How the data were processed

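Bulk polyadenylated RNA of 4 organs was sequenced with 2 mice per organ, and the kidney and lung libraries were compared. The authors selected reads by sample index with bbduk, mapped them with STAR 2.5.3a to the mouse genome of Ensembl release 75 and deposited FPKM values made with the fpkm function of DESeq2. Strand handling is not given in the sources used here, so reads of overlapping genes cannot be told apart.

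The deposited FPKM values were rescaled by the median of ratios over genes above 0 in all 4 libraries. Genes that reached a rescaled FPKM of 1 in 2 or more libraries were kept, and log2(FPKM + 1) was fitted in R 4.3.3 with limma 3.58.1 (moderated test with a mean-variance trend, two-sided, Benjamini-Hochberg adjustment over all genes kept). Tables and plots used Python 3.11.15, numpy 2.4.6, pandas 2.3.3 and matplotlib 3.10.9. In the 4 libraries 94.7% to 96.1% of low values were whole multiples of 1 read, within 0.02 of a whole number, and limma-voom on these recovered reads called 3421 genes higher in kidney and 3466 in lung. Reads carry no molecular identifiers, so depth and floors cover counting error only. Scripts were tested on simulated data.

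Genes named were the 10 called genes per direction with the largest differences and a mean of 10 or more in the higher tissue, members of the gene lists with large differences or a direction against their list, and the 5 most abundant called genes per direction outside the lists; some genes that this rule names are not reported here. Members and lists were chosen with earlier results of these data known, so the counts are no independent evidence. The lists held 805 distinct genes. With 2 pairs, the differences between replicates 1 and 2 in kidney and in lung had a correlation of -0.14 over 14549 genes, so equal numbers were not shown to pair libraries. Other scalings, filters, pseudocounts, variance settings, all 8 libraries in 1 fit, a replicate block and leaving out each library were tried. Promoter sequences are from RefSeq (GRCm38.p6).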

Additional observations from a re-analysis of the deposited data

How the results depend on the processing

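No gene called in the main comparison was called in the opposite direction under any of the 17 alternatives. On the deposited values without rescaling, 1445 genes were higher in kidney and 6718 in lung, and with a filter at FPKM 5 the count for lung was 1633. Leaving out 1 library gave 1886 (without lung replicate 1) to 3338 (without kidney replicate 1) genes higher in kidney, and 2480 (without lung replicate 2) to 3155 (without kidney replicate 1) higher in lung. Leaving out a library leaves its tissue with 1 sample, which is taken to vary like the other tissue's replicates. List medians are over the members that passed the filter in each setting. The median difference of nuclear oxidative phosphorylation genes was 1.19 on the deposited values and 1.63 after quantile normalization. That of pan-endothelial genes was -3.54 on the deposited values, -2.94 after quantile normalization, -2.90 with mitochondrial genes left out, -2.92 with a pseudocount of 0.1 and -3.18 with limma-voom. That of pan-leukocyte genes was -3.43 on the deposited values, -3.95 with a pseudocount of 0.1, -3.48 with a filter at FPKM 5 and -4.05 with limma-voom. That of core matrix genes was -2.30 on the deposited values, -2.32 with a pseudocount of 0.1, -1.23 with no filter, -2.17 with a filter at FPKM 5 and -2.60 with limma-voom. The cause of these shifts was not tested. The replicate block called 3012 and 2998 genes, and the crossed pairing, chosen after seeing the data, 3027 and 3004. With 2 libraries per tissue and 9764385 reads in the shallowest, genes below about 0.3 FPKM rest on few reads.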

Other observations

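Markers of neighbouring tissues were measured in both organs. Cela1, a pancreatic elastase, was at 93.4 and 131 in the kidney libraries and 0.935 and 0.952 in the lung libraries (5.85 ± 0.24), while Prss2, Cpa1, Pnlip and Cel did not reach the filter. Chad, the cartilage protein chondroadherin, was at 0.0339 and 0.122 in kidney and 14.1 and 9.81 in lung (-3.57 ± 0.22), with Col2a1, Acan and Matn1 below the filter. Albumin (Alb), the main liver plasma protein, was at 18.97 and 72.2 in kidney and 46.3 and 25.4 in lung and Mup3, a major urinary protein, at 5.76 and 34.04 in kidney and 19.8 and 9.63 in lung. In both genes kidney replicate 2 exceeded replicate 1 and lung replicate 1 exceeded replicate 2, so that the tissues overlapped. Serpina1a, a protease inhibitor of plasma, was higher in kidney at 39.5 and 59.3 in kidney and 7.58 and 4.93 in lung (2.79 ± 0.31). Skeletal muscle markers differed between the lung replicates, with Acta1, the skeletal actin, listed at 0 in both kidney libraries and at 17.9 and 0.171 in lung.

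Among ciliated cell genes, Foxj1, the master factor of motile cilia, was at 0.130 and 0.234 in the kidney libraries and 25.7 and 28.2 in the lung libraries (-4.56 ± 0.18) and Tppp3, a microtubule protein, at 0.894 and 1.72 in kidney and 167 and 175 in lung (-6.24 ± 0.25). Among podocyte genes, Podxl, podocalyxin, which endothelium also expresses, was at 28.7 and 12.9 in kidney and 32.8 and 32.96 in lung and Synpo, synaptopodin, at 3.87 and 2.32 in kidney and 3.49 and 3.28 in lung, and neither was called. In the intercalated cell list Foxi1, the factor that specifies these cells, was at 11.5 and 7.86 in kidney and 0.0583 and 0 in lung (3.36 ± 0.22). In the distal convoluted tubule list Slc12a3, the thiazide-sensitive transporter, was at 103 and 31.4 in kidney and 0.179 and 0.0378 in lung (5.71 ± 0.54), and Trpm6, a magnesium channel, at 2.696 and 1.15 in kidney and 2.37 and 2.65 in lung, not called and with overlapping libraries.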
